A study of Mus musculus with 24 samples.

Results

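The genes described here are the mouse Zfp genes with numbered symbols, the entries whose symbol is Zfp followed by a number and at most 1 letter. They are 307 of the 13290 entries in the count tables, or 2.31%. They were studied in BV2, an immortalised mouse line of microglia, the resident macrophages of the brain, and in the extracellular vesicles (EVs) that the cells released. The groups were cells treated for 72 h with LPS (lipopolysaccharide, a bacterial cell wall component) at 100 ng/mL, with the cytokine IL-10 at 50 ng/mL or with the cytokine TGF-β at 50 ng/mL, and Control cells, together with the EVs of each, so that there were 8 groups of 3 libraries. All groups come from 1 cell line, and the labels do not say whether the triplicates were grown apart. Each p-value therefore weighs a difference against the scatter among triplicates, part or all of which may be technical. BV2 cells expressed the microglial genes Csf1r, Cd68, Tyrobp and Trem2, while P2ry12 was not among the listed genes and Cx3cr1 had a mean of 8.13 CPM (counts scaled to a library total of 1000000) in TGF-β cells and 0 to 0.081 CPM in the other cell groups.

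Most Zfp genes encode proteins with arrays of C2H2 zinc fingers, small folds that hold a zinc ion and read DNA bases. The largest family among them carries a KRAB box, which recruits the corepressor Trim28 and through it the histone methyltransferase Setdb1 and heterochromatin proteins, and is best known for silencing retroelements. Other Zfp genes are general transcription factors, and a few act on RNA, on ribosomes or in protein modification.

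Checked against the proteins translated from the GENCODE M21 annotation of build GRCm38, 299 of the 305 members with a coding sequence held at least 1 C2H2 finger, with a median of 11 fingers. A KRAB motif was found in 161 (52.8%), against 0.81% of the 21690 other coding genes. Members with the motif had a median of 12 fingers and those without it a median of 8, and the highest number was 34, in Zfp142. The 6 members with no match to the C2H2 pattern were Zfp36, Zfp330, Zfp451, Zfp503, Zfp703 and Zfp839, and Zfp419 and Zfp939 are annotated as pseudogenes. The finger pattern has a fixed spacing and was searched in 1 protein per gene, so a member without a match may still hold a finger. The motif search can miss diverged boxes, so the group without the KRAB motif is not free of KRAB genes for certain.

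The genes lie in clusters. Chromosome 7 held 81 of them, chromosome 17 held 41 and chromosome 13 held 31. Another member lay within 500 kb of 136 of the 161 genes with a KRAB motif and of 65 of the 144 without one. More than 20% of the exonic sequence was shared with another gene, counted over stretches of 100 bases, in 24 members, and more than 20% of the exons overlapped another gene in 14. Counts of those members can mix loci, and they are named as such below.

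Zfp messages were scarce. Scaled per kilobase of exon (RPKM), 253 of 307 members (82.4%) lay below the median of all listed genes in Control cells. The median level over members was 1.08 RPKM in LPS cells, 1.08 in IL-10 cells, 1.38 in TGF-β cells and 1.21 in Control cells, where all listed genes had a median of 3.98 RPKM. In Control cells, members with a KRAB motif had a median of 0.796 RPKM and those without it a median of 2.22 RPKM.

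The most abundant member in Control cells was Zfp385a, a cofactor of p53 in mice, at 39.0 ± 2.22 RPKM (SD, n = 3). Below it came Zfp706 at 27.0 ± 1.23 RPKM and Zfp106, an RNA-binding protein needed by mouse motor neurons, at 25.3 ± 0.14 RPKM, a gap close to the SD of Zfp706. Zfp655, Zfp622 and Zfp207 followed at 18.4 ± 1.02, 17.9 ± 0.389 and 16.7 ± 1.30 RPKM, and their ranges of 1 SD touch or nearly touch. Zfp286, Zfp618 and Zfp709 had no count in any Control cell library. Summed over all members, the level was 3673 ± 221 CPM in LPS cells, 3451 ± 70.3 in IL-10 cells, 4192 ± 248 in TGF-β cells and 3890 ± 45.2 in Control cells (SD, n = 3 each).

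Cell libraries held 26136825 to 42125153 counts and EV libraries 3019338 to 17978753 counts. Between the 3 libraries of a cell group, the coefficient of variation of a member with at least 20 counts on average had a median of 12.6 to 16.5%, against 7.58 to 11.1% for all listed genes. In EVs the same median was 71.0% with LPS, 101% with IL-10, 98.7% with TGF-β and 116% in Control EVs, against 47.6 to 83.3% for all listed genes. Differences in cells were therefore measured with much less error than differences in EVs.

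The 3 treatments moved Zfp genes in different ways. With LPS, most members that passed the test fell, with TGF-β most rose, and with IL-10 few passed. Members had lower levels and wider scatter than all genes, as given above. The shares called were not matched for either. The 3 comparisons share the same 3 Control cell libraries. Each was made with edgeR's quasi-likelihood test with adjustment over all genes tested and a threshold of 0.05.

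**Figure D1:**
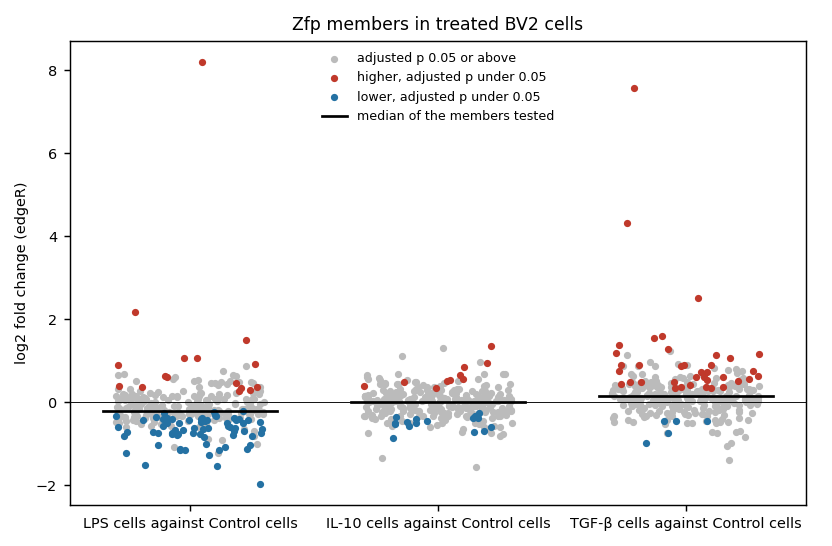
Each point is a Zfp member in the comparison of LPS, IL-10 or TGF-β cells with Control cells, and the vertical axis is the fitted log2 fold change. Black bars are the medians of the members tested, at -0.21 with LPS, 0.00 with IL-10 and 0.15 with TGF-β; the highest points are Zfp811 with LPS and Zfp618 with TGF-β, whose fitted values rest on a control group with 1 count and 0 counts.

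In LPS cells 16 of the 299 members tested rose and 67 fell, so 27.8% were called, where 56.1% of all 11951 genes tested were called. The share of falling members was 22.4%, against 27.5% of all genes, and the share of rising members was 5.35%, against 28.6% of all genes. The median log2 fold change was -0.21 over the members and 0.01 over all genes. Among the genes with a KRAB motif 6 rose and 26 fell of 160 tested, and among those without it 10 rose and 41 fell of 137. In bulk RNA, fewer cells of a type and less RNA per cell cannot be told apart.

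The largest rise was that of Zfp811, a KRAB zinc finger gene on chromosome 17 (GRCm38, 32795676 to 32809931, minus strand) with 14 fingers. It had 5.82, 3.32 and 4.73 CPM in LPS cells, 0 in all IL-10 and all TGF-β cells, and 0, 0.0313 and 0 CPM in Control cells. All 3 LPS libraries stood above every other cell library, and the Control value is a single read count. Over the groups these were 495 counts against 1, a ratio of 423 with an exact 95% interval of 75.6 to 16700 that covers counting error only (edgeR adjusted p = 1.01e-09). The level in LPS cells was at least 54.4-fold that in IL-10 cells and at least 47.3-fold that in TGF-β cells, taking 3 counts per library as the floor. None of the 9 other Zfp genes within 500 kb passed the test, and their log2 fold changes ran from -0.49 to 0.49, with 0.0839 as the lowest edgeR adjusted p.
The Zfp811 promoter, shown because the gene had almost no count outside LPS libraries, holds none of the motifs searched for below (RefSeq, GRCm38.p6, chr17:32809882-32810181, minus strand, 250 bases before to 50 after the start site, no capitals).
Zfp811: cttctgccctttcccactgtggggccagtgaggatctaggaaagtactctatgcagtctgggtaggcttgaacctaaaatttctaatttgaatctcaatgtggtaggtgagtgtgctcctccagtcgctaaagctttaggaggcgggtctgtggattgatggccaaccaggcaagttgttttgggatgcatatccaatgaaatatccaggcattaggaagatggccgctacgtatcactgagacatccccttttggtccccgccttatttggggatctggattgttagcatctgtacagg

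Zfp658, a KRAB gene on chromosome 7, had 8.81, 8.45 and 7.75 CPM in LPS cells, 2.73, 2.04 and 1.26 in IL-10 cells, 3.58, 2.72 and 4.85 in TGF-β cells, and 2.56, 3.32 and 2.56 in Control cells. The LPS libraries did not overlap any other group. It rose 2.82-fold with LPS (log2 1.49 ± 0.20 SE, edgeR adjusted p = 2.68e-06). Zfp719 had 26.3, 17.9 and 18.7 CPM in LPS cells and 10.4, 12.9 and 8.94 CPM in Control cells, again with no overlap (log2 0.90 ± 0.16 SE, edgeR adjusted p = 0.000112). Zfp207, also called BuGZ, which binds the spindle checkpoint protein Bub3, had 167, 149 and 145 CPM in LPS cells and 111, 120 and 103 CPM in Control cells (log2 0.40 ± 0.074 SE, edgeR adjusted p = 0.000155). Its rise was small beside those of Zfp811 and Zfp658, and the groups still did not overlap.

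The remaining large rises with LPS were Zfp532 at log2 2.18, Zfp428 at 1.07, Zfp867 at 0.93, Zfp280c at 0.64, Zfp961 at 0.61 and Zfp280b at 0.46. Zfp532 averaged 0.814 CPM in LPS cells and 0.169 CPM in Control cells, and 29.2% of its exonic sequence is shared with another gene. Zfp827, which in human cells brings the NuRD complex to some telomeres, rose by log2 1.06 (edgeR adjusted p = 0.0331). Among the abundant members, Zfp106 rose by 0.27 and Zfp706 by 0.35 on the log2 scale.
Several of these calls were lost under an alternative. With all 12 cell libraries in 1 edgeR fit the adjusted p was 0.0994 for Zfp428, 0.0536 for Zfp867 and 0.0633 for Zfp827. Zfp428 was also lost without LPS library 2 or 3 or Control library 1 or 2 (0.0514 to 0.126), and Zfp827 without LPS library 1 or 3 or Control library 1 or 2 (0.0787 to 0.136). Zfp867 was lost without LPS library 3 or Control library 3 (0.123 and 0.118), Zfp961 without LPS library 1 or 2 (0.0578 and 0.0644) and Zfp280b without Control library 2 (0.0904).

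The largest fall with LPS was that of Zfp704. It had 5.84, 3.77 and 2.87 CPM in LPS cells, 9.17, 8.51 and 8.34 in IL-10 cells, 14.9, 11.0 and 15.3 in TGF-β cells, and 15.7, 14.6 and 16.4 in Control cells. LPS libraries were lowest and IL-10 libraries next, with no overlap of either with Control cells. With LPS it was 3.89-fold lower (log2 -1.96 ± 0.20 SE, edgeR adjusted p = 1.68e-07), and with IL-10 the log2 fold change was -0.69 (edgeR adjusted p = 0.000742).

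Zfp358 had 16.7, 16.3 and 17.3 CPM in LPS cells and 32.6, 35.1 and 38.0 CPM in Control cells, the lowest adjusted p among the falling members (log2 -1.14 ± 0.11 SE, edgeR adjusted p = 2.88e-08). Zfp629 had 8.36, 6.63 and 6.16 CPM in LPS cells and 15.4, 16.2 and 17.5 CPM in Control cells (log2 -1.28, edgeR adjusted p = 5.29e-07). Zfp395 had 1.88, 3.35 and 2.90 CPM in LPS cells and 6.84, 7.77 and 7.59 CPM in Control cells (log2 -1.53, edgeR adjusted p = 1.26e-05). In each of these genes every LPS library was below every Control library.

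Zfp579 fell by 1.52, Zfp652 by 1.23, Zfp52 by 1.16, Zfp791 by 1.14, Zfp318 by 1.13 and Zfp317 by 1.12 on the log2 scale with LPS. Zfp652, whose human counterpart is a repressor that works with the corepressor CBFA2T3, moved in opposite directions with LPS and TGF-β. It had 9.4, 6.28 and 5.19 CPM in LPS cells, 35.1, 26.7 and 26.2 in TGF-β cells and 15.1, 15.5 and 16.5 in Control cells, 3 levels that do not overlap (log2 -1.23 with LPS and 0.91 with TGF-β, edgeR adjusted p = 9.32e-06 and 0.00022). Zfp318, which mouse B cells need to make IgD, had 8.97, 5.06 and 5.00 CPM in LPS cells, 6.36, 4.89 and 8.48 in IL-10 cells, 13.8, 4.59 and 5.66 in TGF-β cells, and 13.9, 11.5 and 14.6 in Control cells. With LPS and IL-10 the groups lay apart from Control cells (edgeR adjusted p = 0.000115 and 0.00225), but with all 12 cell libraries in 1 fit the IL-10 value was 0.168. With TGF-β the adjusted p was 0.281, and without TGF-β library 1 the log2 fold change was -1.37 (edgeR adjusted p = 7.83e-05).

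**Figure D2:**
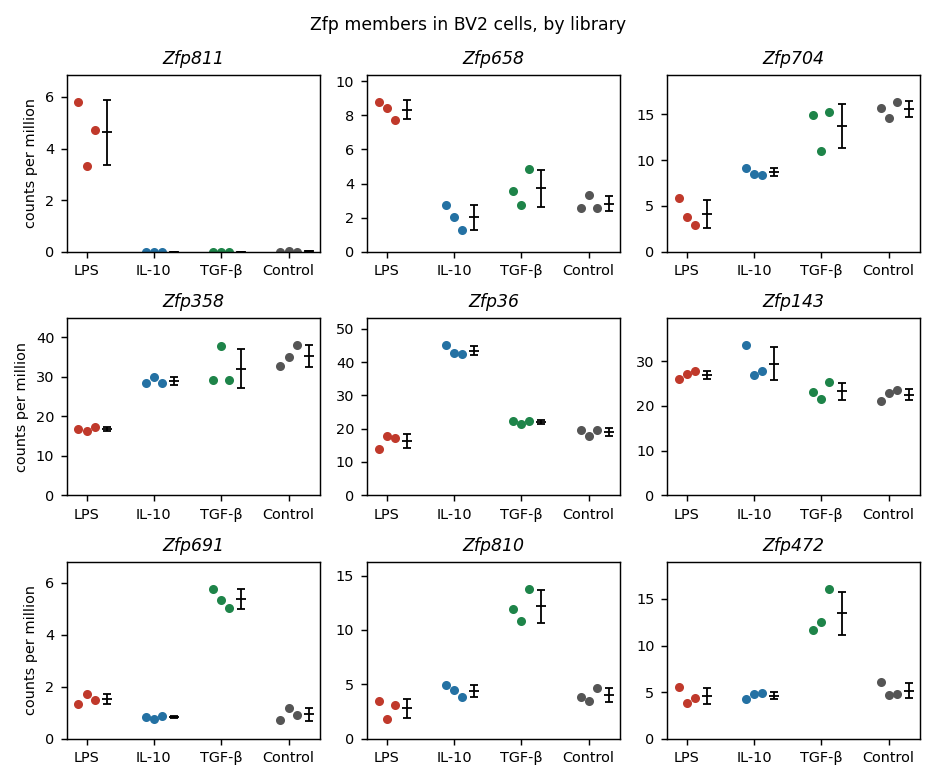
Levels of 9 Zfp members in BV2 cells, 1 panel per gene, with CPM on the vertical axis; points are libraries of LPS, IL-10, TGF-β and Control cells and bars are the mean ± SD of 3 libraries. Zfp811 and Zfp658 are high in LPS cells, Zfp704 and Zfp358 low in them, Zfp36 is high in IL-10 cells, and Zfp691, Zfp810 and Zfp472 are high in TGF-β cells.

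With IL-10, 10 of the 296 members tested rose and 16 fell, so 8.78% were called, against 23.2% of all 11790 genes tested. The shares were 12.3% higher and 10.9% lower over all genes, and the median log2 fold change was 0.00 over the members. The number of rising members was 6 without IL-10 library 2 and 6 without Control library 1. The number of falling members was 10 without Control library 1, 9 without Control library 3 and 10 with all 12 cell libraries in the fit. Fitted folds exceed ratios of CPM for IL-10, because TMM scaling factors were 0.9391 to 0.96 in IL-10 cells and 1.051 to 1.066 in Control cells.

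The largest rise with IL-10 was that of Zfp36, the gene of tristetraprolin, whose CCCH fingers bind AU-rich stretches of cytokine mRNAs and promote their decay. It had 45.1, 42.8 and 42.5 CPM in IL-10 cells and 19.5, 17.7 and 19.7 CPM in Control cells. All IL-10 libraries were far above all others, since LPS cells had 13.9, 17.7 and 17.3 CPM and TGF-β cells 22.3, 21.3 and 22.3 CPM. The rise was 2.56-fold (log2 1.35 ± 0.096 SE, edgeR adjusted p = 6.88e-09). With LPS the log2 fold change was -0.29 and did not pass the test (edgeR adjusted p = 0.0668), although it did with all 12 cell libraries in the fit, without LPS library 2 or without LPS library 3, at 0.0431, 0.0389 and 0.0494. In TGF-β cells the adjusted p was 0.166. Zfp36 is the only member of its small family that the symbol rule takes in. Of its close relatives, Zfp36l1 averaged 2.71 CPM in LPS cells, 16.9 in IL-10 cells, 22.8 in TGF-β cells and 12.5 in Control cells, and passed the test in all 3 comparisons, with log2 fold changes of -2.26, 0.58 and 0.86. Zfp36l2 fell with LPS and IL-10, by 0.57 and 0.60 on the log2 scale.

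Zfp473, the mouse counterpart of a human component of histone mRNA processing, moved up with IL-10 and down with TGF-β. It had 5.22, 3.63 and 3.72 CPM in LPS cells, 8.78, 11.8 and 7.31 in IL-10 cells, 3.09, 2.83 and 2.19 in TGF-β cells, and 6.21, 4.64 and 5.29 in Control cells. IL-10 libraries were all above and TGF-β libraries all below the Control libraries. The log2 fold changes were 0.95 with IL-10 and -0.98 with TGF-β (edgeR adjusted p = 0.00164 and 0.0072).

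The promoters of Zfp36 and Zfp473 are shown because these members had the largest rises with IL-10, a cytokine that acts through STAT3. Capitals mark matches to the STAT motif TTCNNNGAA and, in Zfp473, to the NF-kB letters GGANTTTCC, both searched on both strands. Zfp36 has 1 match that begins 17 bases before the start site (RefSeq, GRCm38.p6, chr7:28379179-28379478, minus strand). Zfp473 has 1 STAT match that begins 105 bases before its second listed start site (chr7:44748342-44748641, minus strand) and an NF-kB match on the reverse strand that begins 116 bases before it, without overlap.
Zfp36: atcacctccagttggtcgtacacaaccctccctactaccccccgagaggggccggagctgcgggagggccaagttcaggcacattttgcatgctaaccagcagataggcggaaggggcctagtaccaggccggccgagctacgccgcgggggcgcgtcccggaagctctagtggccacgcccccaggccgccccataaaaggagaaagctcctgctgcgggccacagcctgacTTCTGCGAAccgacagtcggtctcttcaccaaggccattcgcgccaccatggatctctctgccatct
Zfp473: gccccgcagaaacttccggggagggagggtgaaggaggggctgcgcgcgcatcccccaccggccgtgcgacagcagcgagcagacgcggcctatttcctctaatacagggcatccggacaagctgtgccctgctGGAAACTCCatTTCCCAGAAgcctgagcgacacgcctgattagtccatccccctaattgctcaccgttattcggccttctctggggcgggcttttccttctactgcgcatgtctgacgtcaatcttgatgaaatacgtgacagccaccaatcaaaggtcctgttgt

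The STAT motif is common in Zfp promoters whether or not the gene moved. RefSeq promoters were given for 258 of the 307 members, and 16.9% of the 314 member promoters held a match, against 8.3% of all 32851 promoters of that length. Of the members with a promoter that rose with IL-10, 3 of 9 held a match, Zfp36, Zfp473 and Zfp455. Of those that fell 1 of 15 did, Zfp282, and of those not called 44 of 225 did (19.6%). A match is a stretch of letters and not a binding site.

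Zfp143, the mouse counterpart of human ZNF143, an activator of small nuclear RNA and many housekeeping genes, had 25.9, 27.1 and 27.7 CPM in LPS cells, 33.6, 26.8 and 27.8 in IL-10 cells, 23.1, 21.5 and 25.3 in TGF-β cells, and 21.1, 22.8 and 23.5 in Control cells. It rose with IL-10 with no overlap with Control cells (log2 0.54 ± 0.11 SE, edgeR adjusted p = 0.0011). The core of its own binding motif, TACANNTCC on either strand, occurred in 63 of the 314 member promoters (20.1%) and in 4.43% of all promoters. That core was searched for after the sequences had been looked at. It was present in 4 of 9 members that rose with IL-10, in 2 of 15 that fell and in 23.6% of those not called.

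Zfp703, a corepressor linked to human luminal breast cancer, had 6.03, 6.46 and 6.38 CPM in LPS cells, 13.7, 13.6 and 13.2 in IL-10 cells, and 7.51, 11.3 and 11.8 in Control cells. It was lower with LPS and higher with IL-10 (log2 -0.77 and 0.56, edgeR adjusted p = 0.00141 and 0.0147), and without Control library 1, the lowest of the 3, the IL-10 value was 0.085. Zfp281, a GC-box factor that restrains mouse embryonic stem cell programmes, had 29.8, 28.0 and 30.3 CPM in IL-10 cells, 41.1, 38.5 and 48.5 in TGF-β cells and 25.6, 25.1 and 26.8 in Control cells. TGF-β libraries were highest and IL-10 libraries between (log2 0.34 with IL-10 and 0.73 with TGF-β, edgeR adjusted p = 0.0154 and 0.000143). The IL-10 call was lost without Control library 1 or 2, at 0.0596 and 0.0637. The other members that rose with IL-10 were Zfp455 at log2 0.86, Zfp738 at 0.65, Zfp874a at 0.51, Zfp120 at 0.49 and Zfp334 at 0.40. The calls of Zfp738, Zfp874a and Zfp120 were lost with all 12 cell libraries in 1 edgeR fit (adjusted p = 0.0673, 0.112 and 0.0692). They were also lost without IL-10 library 2 or Control library 2 for Zfp738 (0.0773 and 0.0574), without IL-10 library 2 or Control library 1 or 3 for Zfp874a (0.0862 to 0.0947), and without IL-10 library 3 or Control library 2 for Zfp120 (0.0661 and 0.106). Zfp455 was lost without each library but Control library 1 (0.053 to 0.147).

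The largest falls with IL-10 among named members were those of Zfp318, Zfp74 and Zfp704, of which Zfp318 and Zfp704 are described above. Zfp74 had 75, 90 and 135 counts in IL-10 cells and 140, 152 and 166 counts in Control cells. Smaller falls followed. Zfp219, with 6.75, 7.56 and 7.22 CPM in IL-10 cells and 11.8, 11.3 and 12.6 CPM in Control cells, was lower in every IL-10 library (log2 -0.57, edgeR adjusted p = 0.008). Zfp385a, the most abundant member, had 70.8, 83.3 and 82.8 CPM in LPS cells, 66.2, 72.9 and 59.8 in IL-10 cells, and 93.2, 104 and 96.9 in Control cells. It fell by 0.38 with LPS and by 0.41 with IL-10 on the log2 scale (edgeR adjusted p = 0.000699 and 0.000869). Zfp282 was the member that passed the test as lower in all 3 comparisons, with log2 fold changes of -0.38 with LPS, -0.47 with IL-10 and -0.45 with TGF-β. It had 17.2, 14.7 and 16.2 CPM in LPS cells, 13.0, 13.7 and 12.1 in IL-10 cells, 12.7, 15.8 and 15.1 in TGF-β cells, and 19.8, 18.6 and 21.4 in Control cells, so that the Control libraries were above all others. Its TGF-β call was lost without TGF-β library 1 (edgeR adjusted p = 0.0755), Control library 1 (0.0615) or Control library 3 (0.0961).

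With TGF-β, 37 of the 298 members tested rose and 5 fell, so 14.1% were called, where 29.9% of all 11798 genes tested were called. The rising share was 12.4% of members and 14.5% of all genes, and 15.4% of all genes fell. The median log2 fold change was 0.15 over the members and 0.01 over all genes. Among genes with a KRAB motif 19 rose and 2 fell of 159 tested, with a median of 0.27, and among those without it 18 rose and 3 fell of 137, with a median of 0.08. Without Control library 2 the number of rising members was 22. The number of falling members was 10 without TGF-β library 1, 14 without TGF-β library 3 and 8 with all 12 cell libraries in the fit.

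Zfp618 and Zfp697 had few or no counts in Control cells. Zfp618 had 0.428, 0.765 and 1.13 CPM in TGF-β cells and 0 in all 3 Control libraries, 73 counts against 0, at least 7.56-fold with a floor of 3 counts per library (edgeR adjusted p = 0.000725). It also had 31 counts in IL-10 cells, at least 2.85-fold, but did not pass the filter on low counts there. Zfp697 had 1.41, 1.19 and 1.01 CPM in TGF-β cells and 0.0743, 0.0627 and 0.0337 CPM in Control cells, 112 counts against 5, a ratio of 21.2 with an exact 95% interval of 8.82 to 66.6 (edgeR adjusted p = 0.000125). In both genes the groups were fully apart, at levels close to the limit of detection.

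The best supported rises were at higher levels. Zfp691 had 5.78, 5.36 and 5.02 CPM in TGF-β cells and 0.706, 1.19 and 0.91 CPM in Control cells, 5.73-fold higher (log2 2.52 ± 0.28 SE, edgeR adjusted p = 1.31e-05). Zfp810 had 11.9, 10.8 and 13.8 CPM in TGF-β cells and 3.83, 3.51 and 4.69 CPM in Control cells (log2 1.60 ± 0.18 SE, edgeR adjusted p = 1.92e-05). Zfp472 had 11.7, 12.5 and 16.1 CPM in TGF-β cells and 6.06, 4.67 and 4.75 CPM in Control cells (log2 1.38 ± 0.18 SE, edgeR adjusted p = 6.31e-05). In these 3 genes every TGF-β library was above every library of the other cell groups, as the plot of 9 members shows.

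Zfp809, a KRAB protein that in mouse embryonic stem cells binds the primer binding site of retroviruses and silences them, had 8.92, 8.03 and 9.70 CPM in TGF-β cells and 4.64, 4.42 and 3.14 CPM in Control cells (log2 1.13 ± 0.20 SE, edgeR adjusted p = 0.000746). The groups lay apart. Zfp810, described above, is its neighbour on chromosome 9, and the pair lie within 500 kb. The other of the 2 tested members within that distance of Zfp809 was not called (log2 -0.40). On chromosome 17, 3 of the 10 tested members within 500 kb of Zfp472 also rose, Zfp871, Zfp763 and Zfp799, with log2 fold changes of 0.75, 1.07 and 1.19, and 0 fell. Of all genes tested, 14.5% rose with TGF-β. Both stretches were picked around members that had risen, and the difference from that share was not tested. Zfp811, which rose with LPS, lies in the same stretch of chromosome 17 and had no count in TGF-β cells.

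Other rises with TGF-β were Zfp667 at log2 1.54, Zfp85 at 1.29, Zfp799 at 1.19 and Zfp526 at 1.16. Zfp148, a GC-box factor related to Zfp281, rose by 0.36 (edgeR adjusted p = 0.0486) and Zfp292 by 0.34 (edgeR adjusted p = 0.0464), while Zfp292 fell by 0.73 on the log2 scale with LPS (edgeR adjusted p = 0.000109). The TGF-β call of Zfp148 was lost in the joint fit of the 12 cell libraries (0.0503) and without each library but TGF-β library 2 (0.0738 to 0.171), and that of Zfp292 without TGF-β library 3 or Control library 1 or 2 (0.14 to 0.169). The 5 members that fell were Zfp473, Zfp777, Zfp335, Zfp282 and Zfp622. Zfp777 had 8.28, 6.96 and 8.06 CPM in TGF-β cells and 11.4, 14.6 and 13.3 CPM in Control cells (log2 -0.75, edgeR adjusted p = 0.00287). Zfp622, whose human counterpart takes part in the maturation of the large ribosomal subunit, had 99.2, 93.5 and 114 CPM in LPS cells, 93.1, 103 and 84.5 in TGF-β cells and 129, 124 and 129 in Control cells, and fell by 0.39 with LPS and 0.44 with TGF-β on the log2 scale. Exons of Zfp335 overlap another gene over 28.3% of their length.

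Zfp85, a KRAB gene on chromosome 13, is shown as an example of a Zfp promoter in which the STAT letters and the ZNF143 core run into each other (RefSeq, GRCm38.p6, chr13:67755153-67755452, minus strand). Capitals mark a STAT match 229 bases before the start site, a second that begins 20 bases before it, and the ZNF143 core on the reverse strand, which begins 15 bases before the start site and overlaps the second STAT match. Of the 63 member promoters with the ZNF143 core, 27 also held a STAT match.
Zfp85: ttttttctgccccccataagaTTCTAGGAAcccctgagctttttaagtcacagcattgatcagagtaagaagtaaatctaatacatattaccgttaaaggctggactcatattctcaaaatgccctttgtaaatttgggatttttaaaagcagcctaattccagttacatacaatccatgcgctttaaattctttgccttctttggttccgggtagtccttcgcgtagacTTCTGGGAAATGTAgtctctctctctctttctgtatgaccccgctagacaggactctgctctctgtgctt
In cells its level was low, at 1.04, 1.26 and 1.53 CPM in TGF-β cells and 0.706, 0.564 and 0.303 CPM in Control cells (edgeR adjusted p = 0.0448). The call was lost in DESeq2 (adjusted p = 0.0542), in the edgeR fit of all 12 cell libraries (adjusted p = 0.0708) and without any 1 of the 6 libraries (edgeR adjusted p of 0.0526 to 0.164). The ZNF143 core occurred in 27 member promoters on chromosome 7 and 18 on chromosome 13. Among members with a promoter it was present in 7 of the 33 that rose with TGF-β (21.2%) and in 24.4% of those not called, and with LPS in 1 of 13 that rose, 10 of 51 that fell (19.6%) and 25.7% of those not called.

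Motifs of other factors that the treatments are known to act through were also searched for. The NF-kB letters occurred in 2.23% of member promoters and 1.25% of all promoters, and in 0 of the 13 members that rose with LPS. The AP-1 letters TGANTCA occurred in 3.5% of member promoters and 7.81% of all, and in 0 of those 13. The palindromic SMAD letters GTCTAGAC occurred in 0.318% of member promoters and 0.213% of all, and in 0 of the 33 that rose with TGF-β. The interferon response letters GAAANNGAA occurred in 6.37% of member promoters and 8.56% of all. They were present in 3 of the 13 members that rose with LPS, Zfp334, Zfp106 and Zfp867, in 4 of 51 that fell (7.84%) and in 11 of 187 not called (5.88%).

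A further set of members was chosen for roles known in mouse or human cells, of which Zfp36, Zfp143, Zfp281, Zfp703 and Zfp809 are described above. Among the others, Zfp217, a partner of the CoREST complex, Zfp384, a nuclear matrix factor of bone cells, Zfp644, a partner of the histone methyltransferase G9a, and Zfp407, Zfp592 and Zfp687 all fell with LPS, by 0.25 to 0.49 on the log2 scale. Zfp687 also fell with IL-10, by 0.34, but not without Control library 1 (edgeR adjusted p = 0.0773). The LPS call was lost for Zfp644 in the joint fit of the 12 cell libraries (0.0858) and without LPS library 2 or 3 or Control library 3 (0.0842 to 0.14), for Zfp407 without LPS library 2 (0.0775) or Control library 3 (0.114), and for Zfp217 without LPS library 3 (0.0558). The E3 ligases Zfp91 and Zfp598, the second of which senses collided ribosomes, the double-stranded RNA-binding protein Zfp346, the SUMO ligase Zfp451, and the KRAB proteins Zfp445 and Zfp568, which act at imprinted loci in mice, passed the test in none of the 3 comparisons. The same held for Zfp326, Zfp367, Zfp410, Zfp593, Zfp609, Zfp638, Zfp746 and Zfp932. All of these but Zfp598, Zfp568, Zfp326 and Zfp932 passed in at least 1 comparison under at least 1 alternative. With TGF-β, Zfp445 (adjusted p = 0.056) passed in DESeq2 (0.0207), with all 12 cell libraries in the fit (0.0171), with RLE scaling and without a filter, and Zfp609 (0.0524) in DESeq2 (0.0268), with all 12 cell libraries (0.0286), without a filter and with a mean of at least 50 counts. Without TGF-β library 1, Zfp91 and Zfp746 passed (0.0013 and 3.39e-05), and Zfp346 passed with IL-10 in DESeq2 (0.038).

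**Figure D3:**
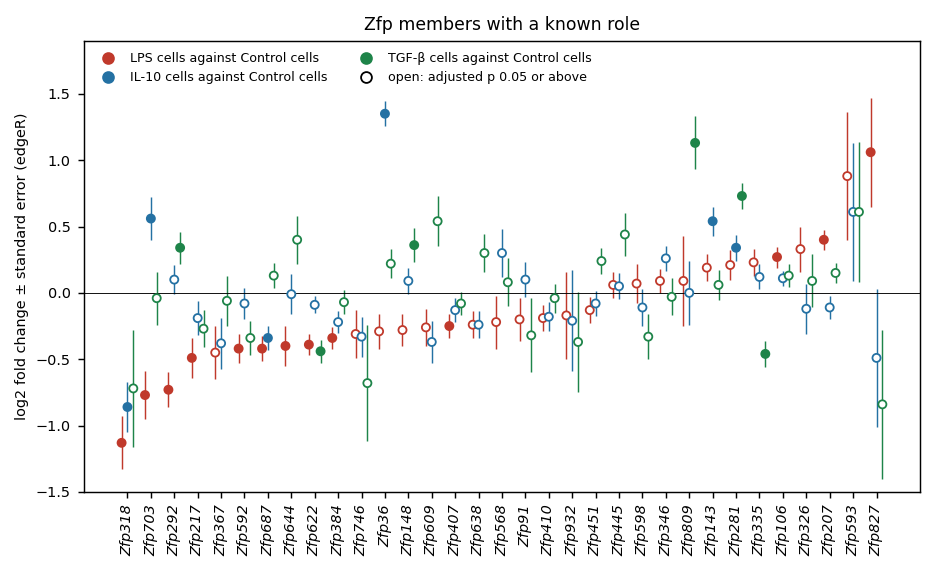
Log2 fold change ± SE of Zfp members with a known role in LPS, IL-10 and TGF-β cells, each against Control cells; filled symbols passed the test at an adjusted p under 0.05 and open symbols did not. Zfp36 with IL-10 (1.35) and Zfp809 with TGF-β (1.13) are the highest filled points of their comparisons, and Zfp318 with LPS (-1.13) the lowest.

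Set against each other, LPS cells and TGF-β cells differed most. In the fit of all 12 cell libraries, 22 of 303 members were higher and 113 lower in LPS cells than in TGF-β cells, 44.6% against 57.1% of all genes, of which 29.3% were higher and 27.8% lower, with a median log2 fold change of -0.41 over members and 0.01 over all genes. Between LPS and IL-10 cells, 23 were higher and 64 lower in LPS cells, 28.7% against 53.3% of all genes. Between TGF-β and IL-10 cells, 58 were higher and 20 lower in TGF-β cells, 25.7% against 38.3% of all genes, and the numbers were 35 higher without TGF-β library 3 and 11 lower without IL-10 library 2, 13 lower without IL-10 library 3 and 13 lower without TGF-β library 1.
Zfp667 averaged 0.94 CPM in LPS cells, 3.10 in IL-10 cells and 6.21 in TGF-β cells. It was lower in LPS cells than in either other treatment, at log2 -1.90 against IL-10 cells and -2.74 against TGF-β cells (edgeR adjusted p = 0.00394 and 0.000183). Zfp36 was lower in LPS cells and in TGF-β cells than in IL-10 cells (log2 -1.64 and -1.13), and Zfp473 averaged 2.70 CPM in TGF-β cells and 9.29 CPM in IL-10 cells (log2 -1.93, edgeR adjusted p = 1.47e-06).

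For the proteins through which KRAB factors act, the shares of messages called are given beside those of all genes. The differences between these shares were not tested. By direction, 28.6% of all genes rose and 27.5% fell with LPS. With IL-10 12.3% rose and 10.9% fell, and with TGF-β 14.5% rose and 15.4% fell. Of 35 corepressor and heterochromatin genes tested, 14 rose and 8 fell with LPS (62.9% against 56.1% of all genes), 2 rose and 3 fell with IL-10 (14.3% against 23.2%), and 9 rose and 0 fell with TGF-β (25.7% against 29.9%; 25, 11 and 16 at an unadjusted p under 0.05, where the TGF-β comparison had 40.3% of all genes). Trim28 averaged 118 CPM in LPS cells, 107 in IL-10 cells and 140 in Control cells (log2 -0.31 and -0.24, edgeR adjusted p = 0.00125 and 0.0266), and its IL-10 call was lost in the joint fit of the 12 cell libraries (0.0685) and without IL-10 library 2 or Control library 2 or 3 (0.0544 to 0.155). Cbx5, the gene of heterochromatin protein HP1α, averaged 90.2 CPM in LPS cells, 79.7 in TGF-β cells and 39.1 in Control cells (log2 1.14 and 1.03, edgeR adjusted p = 3.55e-09 and 0.00691). Resf1, a partner of Setdb1 in retroelement silencing, fell by 0.99 with LPS on the log2 scale and rose by 0.38 with IL-10 and 0.49 with TGF-β, the IL-10 call being lost without IL-10 library 2 (0.0736) or Control library 2 (0.0659). Other zinc finger families can be set beside the Zfp genes. Of 37 Zbtb genes, 2 rose and 13 fell with LPS (40.5%), 3 rose and 3 fell with IL-10 (16.2%), and 2 rose and 6 fell with TGF-β (21.6%), each below the share of all genes. Of 10 Klf genes 1 rose and 7 fell with LPS, 1 rose and 1 fell with IL-10, and 2 rose and 7 fell with TGF-β, the shares for all genes being as above.

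In EVs, many Zfp messages were found in some libraries and not in others. Members without any count numbered 41, 1 and 10 in the 3 LPS EV libraries, 107, 174 and 171 in IL-10 EVs, 222, 86 and 123 in TGF-β EVs, and 163, 155 and 167 in Control EVs. In each cell library 2 to 6 members had no count. LPS EVs stood apart, with at most 13.36% of members missing from a library, where the other EV libraries lacked 28.01 to 72.31%.

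**Figure D4:**
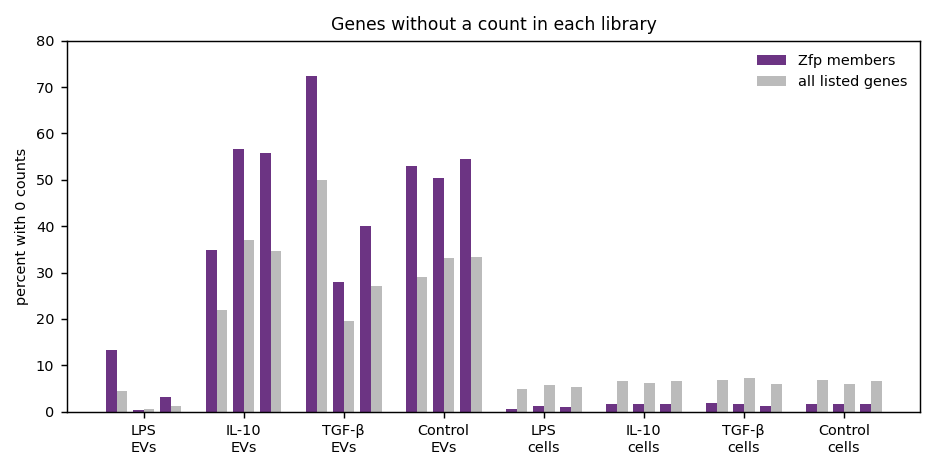
Percent of the 307 Zfp members (purple) and of all 13290 listed genes (grey) with 0 counts, by library, EVs on the left and cells on the right. Members are missing more often than all genes in all EV libraries but LPS EV library 2, and less often than all genes in cells; LPS EVs lack few of either.

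Counts were present in all 3 libraries of a group for 85.3% of members in LPS EVs, 26.4% in IL-10 EVs, 24.1% in TGF-β EVs and 23.8% in Control EVs. Over all listed genes the shares were 94.7%, 50.9%, 46.1% and 51.0%. Detection rose with the level in the cells of origin. In Control EVs, 0.99% of members under 3 CPM in Control cells had a count in all 3 libraries, 20.0% of those from 3 to 10 CPM and 49.1% of those at 10 CPM or more, and in LPS EVs the 3 shares were 70.0%, 88.5% and 98.8%. Over all listed genes they were 13.7%, 27.6% and 72.5% in Control EVs, and 87.9%, 90.2% and 98.5% in LPS EVs. In Control EVs members were thus found less often at each level. Some genes under 3 CPM in cells are listed only through LPS EVs, as given below. The shares found in all 3 libraries were, for members with a KRAB motif and for those without it, 82.0% and 89.6% in LPS EVs, 18.0% and 36.1% in IL-10 EVs, 15.5% and 34.0% in TGF-β EVs, and 11.2% and 38.2% in Control EVs. Levels in cells were also lower in members with the motif, as given above, so the shares are also given by that level. At 10 CPM or more in cells they were 93.8% and 100.0% in LPS EVs, 44.4% and 54.9% in IL-10 EVs, 26.5% and 52.6% in TGF-β EVs, and 21.4% and 59.0% in Control EVs. From 3 to 10 CPM they were 87.3% and 90.7%, 20.6% and 30.8%, 17.6% and 21.6%, and 16.7% and 26.5% in the same groups. Under 3 CPM they were 72.7% and 65.6%, 5.63% and 2.94%, 6.78% and 0.0%, and 1.49% and 0.0%. Outside LPS EVs these last shares rest on very few members. They are 4 of 71 and 1 of 34 in IL-10 EVs, 4 of 59 and 0 of 29 in TGF-β EVs, and 1 of 67 and 0 of 32 in Control EVs. The difference itself was not tested.

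LPS EVs also held RNA of genes with no count in cells. The tables list no gene with a total under 240 counts, and 114 of the 116 listed genes with no count in any cell library would fall under that total without the LPS EV libraries. This set was thus listed through the group where it is high, and its share, 0.116 to 0.499% of the counts of LPS EV libraries and 0.000979 to 0.0131% of those of other EV libraries, is a description. The neuronal genes Snap25, Syt1 and Rbfox3 averaged 17.9, 23.1 and 33.2 CPM in LPS EVs, against 0 to 3.63 CPM in the other EV groups and 0 to 0.095 CPM in all cell groups. Summed, they reached 20.1 to 146 CPM in LPS EV libraries and 0 to 14.5 CPM in other EV libraries, and Map2, the remaining gene of that marker list, was not among the listed genes. Other marker genes did not all lie on the same side. Of the astrocyte genes, Slc1a2 averaged 39.5 CPM in LPS EVs and 2.0 CPM in Control EVs, and Aldh1l1 8.92 CPM in LPS EVs and 16.7 CPM in Control EVs. Of the endothelial genes, Pecam1 averaged 19.9 CPM in LPS EVs and 0 in Control EVs, and Flt1 129 CPM in LPS EVs and 164 CPM in Control EVs. The oligodendrocyte gene Mbp averaged 2.78 CPM in LPS EVs and 20.2 CPM in Control EVs, and the remaining genes of these lists, and all fibroblast markers, were not among the listed genes. The part of this RNA in the Zfp values of LPS EVs was not tested.

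Against Control EVs, 45 of the 242 members tested were higher in LPS EVs and 0 were lower (56 with an unadjusted p under 0.05 in edgeR, and 1 lower in DESeq2). That is 18.6% of members, against 14.2% of all 12216 genes tested, of which 13.9% were higher and 0.237% lower, and 20.2% of all genes had an unadjusted p under 0.05. The median log2 fold change was 0.86 over members and 0.33 over all genes, and it was 1.76 over members with a KRAB motif and 0.14 over those without. The filter on low counts can admit a member through LPS EVs alone. In Control EVs 83 members had no count in any library, and in LPS EVs 0. The shares and medians of this comparison are thus not independent support for a rise or for a difference by KRAB motif. The count of 45 higher members was fragile. It was 0 without any 1 of the 3 LPS EV libraries, 0 with all 12 EV libraries in the fit and 0 for members with a mean of at least 50 counts.

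The members that led this comparison had no count in Control EVs. Zfp709 had 14.6, 43.1 and 18.8 CPM in LPS EVs and 0 in every Control EV library, at least 67.9-fold (edgeR adjusted p = 0.025), and in cells its highest value was 0.095 CPM. Zfp541, a gene of male germ cells in mice, had 7.55, 30.8 and 43.8 CPM in LPS EVs and 0 in Control EVs, at least 73.0-fold (edgeR adjusted p = 0.025). Zfp352, a gene of the early mouse embryo, had 6.63, 81.5 and 7.96 CPM in LPS EVs and 0 in Control EVs, at least 85.3-fold (edgeR adjusted p = 0.0334). These 3 genes were nearly silent in the cells that released the EVs, at no more than 1.11 CPM in any cell library. They are also listed only through LPS EVs, which hold 312 of the 316 counts of Zfp709, 401 of the 498 of Zfp541 and 325 of the 341 of Zfp352, so their place in this comparison is not independent support for it. The same floor of 240 counts would have left out 14 of the 307 members without the LPS EV libraries. Zfp324 was different, with 7.57, 8.45 and 7.39 CPM in LPS cells, and had 5.26, 70.2 and 20.2 CPM in LPS EVs and 0 in Control EVs, at least 85.0-fold (edgeR adjusted p = 0.0261).

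Zfp811, which had the largest rise with LPS in cells, was also higher in LPS EVs than in Control EVs. It had 11.0, 39.7 and 17.0 CPM in LPS EVs and 0 in all 9 other EV libraries, at least 60.2-fold over Control EVs (edgeR adjusted p = 0.025). Its EV level was above its level in LPS cells (log2 1.93, edgeR adjusted p = 0.025). The call against Control EVs was lost without any 1 of the 3 LPS EV libraries, as for every member. Zfp811 had 48, 120 and 107 counts in LPS EVs. Zfp709, with 4 counts outside LPS EVs, had a similar 64, 130 and 118 there. Whether Zfp811 in LPS EVs came from the LPS cells was not tested.

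Between IL-10 EVs and Control EVs 0 of 141 members passed in edgeR, with 3 at an unadjusted p under 0.05 and 1 higher in DESeq2, and 0.0% of all 8992 genes were called (1.97% at an unadjusted p under 0.05). Between TGF-β EVs and Control EVs 0 of 137 passed in edgeR, with 5 at an unadjusted p under 0.05 and 1 lower in DESeq2, and 0.0% of all 9093 genes were called (3.96% at an unadjusted p under 0.05). The members that led in cells were scattered in these EVs. Zfp36 had 9.84, 11.6 and 11.5 CPM in LPS EVs, 14.0, 30.0 and 24.1 in IL-10 EVs, 0, 19.9 and 8.39 in TGF-β EVs, and 35.1, 5.85 and 45.6 in Control EVs, and the Control EV range spans almost all others.

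Set against the cells that released them, EVs were rich in a small number of Zfp messages. Zfp369 had 105, 61.3 and 68.5 CPM in LPS EVs, 612, 367 and 90.3 in IL-10 EVs, 417, 282 and 389 in TGF-β EVs, and 0, 370 and 243 in Control EVs, while its mean in the 4 cell groups was 9.58 to 12.9 CPM. All but 1 of the 12 EV libraries, Control EV library 1, were above all cell libraries. The log2 difference of EVs from cells was 2.81 with LPS, 5.15 with IL-10, 5.10 with TGF-β and 4.44 in Control (edgeR adjusted p = 0.00169, 0.0184, 0.00145 and 0.366).

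Zfp280b had 39.1, 64.6 and 82.8 CPM in LPS EVs, 265, 291 and 39.9 in IL-10 EVs, 228, 135 and 154 in TGF-β EVs, and 7.40, 140 and 81.6 in Control EVs, with group means of 7.28 to 11.9 CPM in cells. Its log2 differences were 2.10 with LPS, 4.92 with IL-10 and 4.59 with TGF-β (edgeR adjusted p = 0.00188, 0.0201 and 0.00177), and 3.32 in Control (edgeR adjusted p = 0.156). Zfp131 had 182, 112 and 97.8 CPM in LPS EVs, 173, 186 and 108 in IL-10 EVs, 134, 65.7 and 108 in TGF-β EVs, and 8.84, 145 and 123 in Control EVs, with group means of 6.88 to 8.01 CPM in cells. Its log2 differences were 3.80, 4.59, 4.14 and 3.71 with LPS, IL-10, TGF-β and in Control (edgeR adjusted p = 0.000582, 0.0183, 0.00485 and 0.113). As with Zfp369, Control EV library 1 was the low one, so these 3 messages were high in EVs of every treatment and passed in all but the Control comparison.

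Zfp106 took the most counts of any member in 10 of the 12 EV libraries. It had 292, 332 and 230 CPM in LPS EVs, 1780, 982 and 540 in IL-10 EVs, 1410, 1210 and 1550 in TGF-β EVs, and 284, 843 and 486 in Control EVs, with group means of 256 to 334 CPM in cells. LPS EVs lay in or below that range, Control EVs in or above it, and all IL-10 and TGF-β EV libraries above it. For TGF-β EVs the difference from TGF-β cells was log2 2.57 (edgeR adjusted p = 0.00248). As 30.4% of its exonic sequence is shared with other genes, its counts may include theirs. Zfp207 went the other way in LPS EVs, with 47.8, 81.8 and 60.0 CPM in LPS EVs and 167, 149 and 145 CPM in LPS cells (log2 -1.58, edgeR adjusted p = 0.000942).

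**Figure D5:**
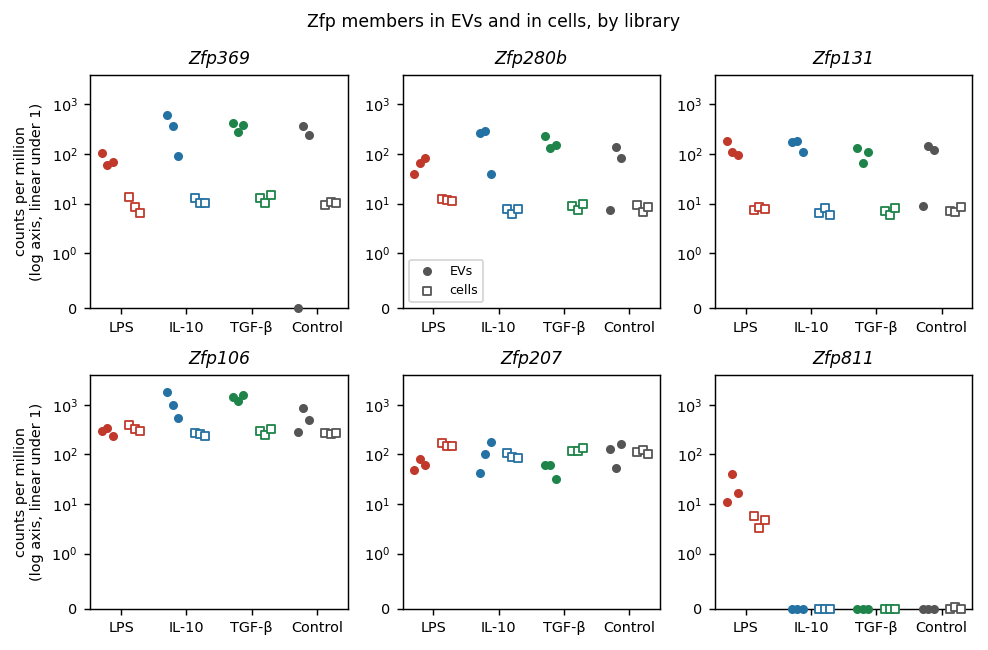
Levels of 6 Zfp members by library in EVs (filled circles) and cells (open squares) of the LPS, IL-10, TGF-β and Control groups, with CPM on a vertical axis that is logarithmic above 1 and linear below it. Zfp369, Zfp280b and Zfp131 are above the cell level in the EV libraries of every treatment, and each is lowest among Control EVs in library 1, where Zfp369 is at 0; Zfp811 has counts in LPS EVs and LPS cells and 1 count elsewhere.

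Over all members, 65 of 301 were higher and 12 lower in LPS EVs than in LPS cells, 25.6% against 40.5% of all genes, of which 25.3% were higher and 15.2% lower. The largest rises among named members there were those of Zfp536, Zfp286, Zfp709, Zfp352 and Zfp541. These genes are listed only through LPS EVs, so their rises are not independent support. In IL-10 EVs 8 of 278 were higher and 54 lower than in IL-10 cells, 22.3% against 17.7% of all genes, of which 7.49% were higher and 10.2% lower. In TGF-β EVs 15 of 281 were higher and 47 lower than in TGF-β cells, 22.1% against 18.4% of all genes, of which 9.42% were higher and 8.99% lower. In Control EVs 0 of 285 were higher and 73 lower than in Control cells, 25.6% against 10.7% of all genes, of which 1.23% were higher and 9.43% lower (88 members and 21.5% of all genes with an unadjusted p under 0.05 in edgeR, and 8 members higher in DESeq2). Of the members that were lower, 0 of 12 had no count in any of the LPS EV libraries, against 51 of 54 in IL-10 EVs, 43 of 47 in TGF-β EVs and 68 of 73 in Control EVs. Zfp46, Zfp317, Zfp446, Zfp629 and Zfp777 had no count in the 3 Control EV libraries, at least 49.3-, 48.9-, 45.6-, 43.7- and 34.9-fold below Control cells (edgeR adjusted p = 0.0216 for each). Zfp715 and Zfp142 had none in IL-10 EVs, at least 55.2- and 41.4-fold below IL-10 cells, and Zfp335 and Zfp324 none in TGF-β EVs, at least 65.7- and 17.3-fold below TGF-β cells. The scaling matters here, since the median log2 difference over all genes between LPS EVs and LPS cells was 0.42 without TMM and 0.13 with it, and that between TGF-β EVs and TGF-β cells was -0.74 without TMM and -0.46 with it.

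These counts depended on single libraries. Without any 1 of the 3 Control cell libraries, 0 members were called lower in Control EVs, and without Control EV library 1 there were 13 higher and 116 lower. For LPS EVs the number higher was 38, 33 and 33 without LPS cell library 1, 2 or 3 and 114 without LPS EV library 1. For IL-10 EVs 0 members were called without any 1 of the IL-10 cell libraries, 37 were higher without IL-10 EV library 3 and 103 lower without IL-10 EV library 1. For TGF-β EVs 5 to 6 were higher and 0 lower without any 1 TGF-β cell library, 33 were higher without TGF-β EV library 1 and 99 lower without TGF-β EV library 2.

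Whether a treatment changed Zfp messages differently in EVs and in cells was tested as an interaction. For LPS, 80 of 307 members had a higher response in EVs and 2 a lower one, 26.7% against 16.1% of all 13263 genes. Of all genes 14.1% had a higher response and 2.04% a lower one. Of the 307 members, 14 are listed only through the LPS EV libraries, and so are some of all genes tested. The count is thus not independent support for a higher response in EVs. The 2 with a lower response were Zfp516 and Zfp207. For IL-10, 0 of 297 passed in edgeR, against 0.285% of all genes, with 67 members and 12.1% of all genes at an unadjusted p under 0.05 and 17 higher and 9 lower in DESeq2. For TGF-β, 0 of 296 had a higher response and 2 a lower one, Zfp51 and Zfp580, against 0.31% of all genes, with 77 members and 13.1% of all genes at an unadjusted p under 0.05 and 25 higher and 9 lower in DESeq2.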

How the data were processed

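RNA of BV2 cells and of their EVs was amplified with SMART-Seq v4 and tagmented with Nextera XT, per the labels' protocols. The authors deposited raw counts per gene, 6 tables of 1 treatment and its controls in 1 compartment, in whole numbers, with no gene under a total of 240 over the 24 libraries. DESeq2 is named in the submitters' processing notes, with aligner, counter, genome build and strand not given in the sources used here, so antisense partners cannot be told apart. The tables were joined by library, with 0 columns unmapped. Column names gave each library's group.

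Comparisons were made with edgeR 4.0.16 in R 4.3.3 (TMM, filterByExpr, robust quasi-likelihood fit, limma 3.58.1) on all genes, with Benjamini-Hochberg adjustment over all genes tested and a threshold of 0.05. Each treatment was compared with Control in its 6 libraries, treatments with each other in the 12 cell libraries, and treatment effects between compartments by interaction in 12 libraries. The fit was also run on simulated counts for LPS cells and LPS EVs, each against Control. That run is not used as support for any result above. CPM are counts scaled to a library total of 1000000, and RPKM divide them by exon length in GENCODE M21. Each SE is the log2 fold change without its sign, divided by the square root of the quasi-likelihood F statistic. Intervals and floors cover counting error only. Alternatives were RLE scaling, library size only, DESeq2 1.42.0, no filter, a mean of at least 50 counts, all libraries of a compartment, and each library left out. Calls of the main fit were also counted among members with little shared sequence only, without a new fit, a check chosen after seeing the data.

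Named genes were the 10 largest rises and 10 largest falls per treatment in cells (3 for direct contrasts, 5 for EV comparisons and interactions) among called members whose higher group averaged 20 counts or more and did not overlap the other, the 3 lowest p-values where none passed, and members with a known role. Other named members were chosen after their values were seen. The members and lists were chosen with earlier results of these data known. Proteins for finger and KRAB motifs were translated from GENCODE M21, promoters are from RefSeq GRCm38.p6, and figures were drawn with matplotlib 3.10.9. The series text also describes recipient cells given EVs, which are not analysed here.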

Additional observations from a re-analysis of the deposited data

Results flagged for a closer look

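The response to LPS differed between EVs and cells, by the interaction in edgeR's quasi-likelihood test, in 9 named members. Zfp541 (edgeR adjusted p = 0.00175), Zfp536 (0.00722), Zfp324 (0.0023), Zfp821 (0.00143) and Zfp827 (0.00257) had counts in all 3 LPS EV libraries and 0 in all Control EV libraries. Zfp536, which restrains neuronal differentiation in mouse cells, had 10.5, 41.7 and 19.3 CPM in LPS EVs and 0 in all LPS cells. Zfp536 and Zfp541 are listed only through LPS EVs, which hold 293 of 302 and 401 of 498 of their counts, so their values are not independent support. Zfp821 had 16.5, 20.2 and 12.7 CPM in LPS EVs and 0 in Control EVs, while in cells it was lower with LPS, at 5.29, 5.17 and 5.13 CPM against 8.10, 8.56 and 9.41 CPM in Control cells. Zfp827 had 7.32, 26.5 and 13.2 CPM in LPS EVs and 0 in Control EVs.

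Zfp317 (edgeR adjusted p = 0.0165) had 0, 35.4 and 19.1 CPM in LPS EVs and 0 in Control EVs, and fell with LPS in cells. Zfp703 (edgeR adjusted p = 0.00773) had 14.6, 6.96 and 1.43 CPM in LPS EVs and 0, 0 and 0.143 CPM in Control EVs, and also fell with LPS in cells. Zfp516 (edgeR adjusted p = 0.0432) had 6.41, 13.6 and 2.07 CPM in LPS EVs and 43.2, 130 and 24.7 CPM in Control EVs, a lower level in every LPS EV library. Zfp207 (edgeR adjusted p = 0.029) had 47.8, 81.8 and 60.0 CPM in LPS EVs and 131, 54.0 and 165 CPM in Control EVs, and rose with LPS in cells. The call of Zfp516 was lost in 13 of 17 alternatives (adjusted p = 0.0534 to 0.111) and that of Zfp207 in 12 of 17 (0.0533 to 0.124), while those of Zfp541, Zfp536, Zfp317, Zfp324 and Zfp821 were kept in all. LPS EVs also held RNA of neuronal genes at or near 0 in cells, as given above, and its part in these values was not tested.

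The response to TGF-β differed between EVs and cells in 2 named members. Zfp51 (edgeR adjusted p = 0.0463) had 0 CPM in all TGF-β EV libraries and 22.1, 10.6 and 33.4 CPM in Control EVs. Zfp580 (edgeR adjusted p = 0.04997) had 0 CPM in all TGF-β EV libraries and 6.06, 11.5 and 5.28 CPM in Control EVs. Both values lie close to the threshold. The call of Zfp51 was lost in 7 of 17 alternatives (edgeR adjusted p = 0.0531 to 0.244) and that of Zfp580 in 8 of 17 (0.0532 to 0.282), among them leaving out any 1 of the 6 cell libraries, and in the direct comparison of TGF-β EVs with Control EVs the edgeR adjusted p was 0.999 for each. In cells the ranges of both genes overlapped, with 4.02 to 7.42 CPM for Zfp51 and 5.50 to 7.84 CPM for Zfp580 in TGF-β cells, and 6.05 to 9.14 CPM and 5.67 to 5.91 CPM in Control cells.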

How the results depend on the processing

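Among named members and corepressor genes, 4514 of 4997 values under an alternative kept their direction and their side of the threshold, 371 lost the call, 109 gained it and 3 reversed. The reversed ones were in LPS EVs against Control EVs, Zfp143 at log2 9.50 and Zfp592 at 9.03 without Control EVs replicate 1 and Zfp407 at 9.70 without Control EVs replicate 2; leaving out each library in turn, they ran from -1.16 to 9.50, from -1.11 to 9.03 and from -1.15 to 9.70. No paired analysis was possible because the columns carry no replicate numbers that the labels tie to samples. EV depth of 3019338 to 17978753 counts limits members under 3 CPM.

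Fitting the 12 libraries of each compartment together, 10 members were lower with IL-10 and 8 with TGF-β in cells, and 0 were higher with LPS in EVs. DESeq2 called 1 lower with LPS, 1 higher with IL-10 and 1 lower with TGF-β in EVs, 8 higher in Control EVs, 26 in IL-10 EVs and 25 in TGF-β EVs than in the cells, and in the interactions 17 higher and 9 lower for IL-10 and 25 higher and 9 lower for TGF-β. With a mean of at least 50 counts, 0 were higher in LPS EVs than in Control EVs, 27 lower in Control EVs, 7 in LPS EVs, 25 in IL-10 EVs and 24 in TGF-β EVs than in the cells, and in the interactions 34 higher and 0 lower for LPS and 1 higher for IL-10. The lower calls of the LPS interaction were 0 with RLE scaling and with library size only, and those of the TGF-β interaction 1 with RLE scaling and 0 without a filter. The share of members below the median of all genes was 80.5% in CPM and 82.4% in RPKM. RLE scaling moved the median of all genes in the LPS interaction to 0.48 and library size only to 0.53, where TMM gave 0.23.

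Leaving out 1 library at a time gave, in cells, 13 to 17 higher and 53 to 79 lower with LPS, 6 to 13 and 9 to 20 with IL-10, and 22 to 47 and 4 to 14 with TGF-β. Between treatments it gave 17 to 23 and 46 to 68 for LPS against IL-10, 15 to 22 and 89 to 106 for LPS against TGF-β, and 35 to 61 and 11 to 21 for TGF-β against IL-10. In EVs it gave 0 to 66 higher and 0 to 2 lower with LPS (2 without Control EVs replicate 1 or 3) and 0 to 0 in both directions with IL-10 and with TGF-β. For EVs against cells it gave 0 to 13 higher and 0 to 116 lower in Control, 33 to 114 and 4 to 29 with LPS, 0 to 37 and 0 to 103 with IL-10, and 5 to 33 and 0 to 99 with TGF-β. For the interactions it gave 65 to 110 higher and 0 to 6 lower with LPS, 0 to 7 and 0 to 6 with IL-10, and 0 to 13 and 0 to 5 with TGF-β.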

Other observations

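The palindrome TTCTGGGAA, searched for after the sequences had been looked at, occurred in 19 of 314 member promoters (6.05%) and in 1.28% of all promoters, and 14 of the 19 lay on chromosome 7. The ZNF143 core occurred in 36 of the 163 promoters of members with a KRAB motif. Many neighbouring Zfp genes are duplicates of each other, so these promoters are not independent of each other. Zfp334, which holds the interferon response letters, passed the test as higher in all 3 treatments in cells, at log2 0.38 with LPS, 0.40 with IL-10 and 0.38 with TGF-β.

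By chromosome, 3 of 78 tested members on chromosome 7 rose and 18 fell with LPS, 3 rose and 4 fell with IL-10, and 8 rose and 1 fell with TGF-β. On chromosome 17, 1 of 41 rose and 6 fell with LPS, 0 of 40 rose and 1 fell with IL-10, and 4 of 40 rose and 0 fell with TGF-β. On chromosome 13, 0 of 31 rose and 4 fell with LPS, 3 rose and 0 fell with IL-10, and 2 rose and 0 fell with TGF-β. Of all genes tested, 28.6% rose and 27.5% fell with LPS, 12.3% rose and 10.9% fell with IL-10, and 14.5% rose and 15.4% fell with TGF-β. The chromosomes were not tested against each other.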
